A study of Mus musculus with 24 samples.

Results

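The non-clustered protocadherins are cell-surface proteins of the cadherin family whose genes lie singly in the genome, outside the alpha, beta and gamma arrays. Members were chosen by gene name, and all 10 were found among the 51697 named genes of the read count table: Pcdh1, Pcdh7, Pcdh8, Pcdh9, Pcdh10, Pcdh11x, Pcdh17, Pcdh18, Pcdh19 and Pcdh20. They were followed in 24 RNA-seq libraries, in 12 groups of 2, of F123 mouse embryonic stem (ES) cells carrying CTCF-AID. CTCF is the zinc-finger protein that anchors chromatin loops, and the auxin-inducible degron (AID) lets auxin trigger destruction of the tagged protein, so all groups share the tagged allele. In ES medium with LIF, cells were harvested after 24, 48 or 96 h of auxin and, for reference, at 0 h. Cells under neural progenitor differentiation were harvested on days 2, 4 and 6 with auxin, or without it as controls. In 2 washout groups auxin was removed on day 4 or on day 6 and cells were harvested 2 days later. The labels do not say whether the cells washed out on day 4 stayed under differentiation, so setting them against day 6 groups is a choice made here on time alone. Auxin stock at 500 mM was diluted into the medium, 1 µl to each ml, and renewed every day. The title of the series concerns CTCF bound near promoters and activation of genes by distal enhancers. The labels do not state that replicates came from separate cultures, so p-values measure only the spread between these samples, which may be technical. Auxin-treated cells without the degron were not analysed here, so CTCF loss and an effect of auxin itself cannot be told apart.

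Protocadherins of the delta group are single-pass adhesion proteins that bind mostly to their own kind on a neighbouring cell and help to sort cells and wire neurons. Delta-1 members (Pcdh1, Pcdh7, Pcdh9, Pcdh11x) carry a binding site for protein phosphatase 1 in their tail. Several delta-2 members (Pcdh8, Pcdh10, Pcdh17, Pcdh18, Pcdh19) bind the WAVE complex, which starts branched actin, and so tie cell contacts to cell movement. Pcdh20 is placed apart from both.

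Several members lay in long intervals with few coding genes. In the GENCODE vM21 annotation of mm10, chromosome 14 held Pcdh8 (79766775 to 79771312), Pcdh17 (84443563 to 84539002), Pcdh20 (88464743 to 88471396) and Pcdh9 (93013410 to 93890679). Chromosome 3 held Pcdh10 (45378398 to 45435623) and Pcdh18 (49743296 to 49757325), and chromosome X held Pcdh11x (120290259 to 120910619) and Pcdh19 (133582860 to 133688987). Chromosome 5 held Pcdh7 (57717967 to 58133230). No protein-coding gene lay in the 4.54 Mb between Pcdh20 and Pcdh9, and 1 lay in the 4.31 Mb between Pcdh10 and Pcdh18. Gene lengths ran from 4.54 kb for Pcdh8 to 877 kb for Pcdh9. Noncoding genes on the opposite strand overlapped Pcdh1 (2010320O07Rik), Pcdh7 (4932441J04Rik), Pcdh8 (Gm9748), Pcdh10 (1700027H10Rik), Pcdh17 (9630013A20Rik) and Pcdh19 (Gm26851), among others. Whether counting used strand is not given in the sources used here, so reads of such pairs cannot be told apart where they overlap.

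RefSeq promoters, from 250 bases before to 50 bases after the start, were matched for 8 members. Those of Pcdh7, Pcdh17 and Pcdh18, whose levels ran together most closely, are printed with that of Pcdh19, which moved the other way under auxin, and that of Pcdh8, which had the largest called difference between auxin and control cells of the same day. They are on build GRCm38.p6 and read 5′ to 3′ on the strand of the gene. Capitals mark CG dinucleotides and, in Pcdh8, TATAAA.
Pcdh7, chr5:57717831-57718130, plus strand: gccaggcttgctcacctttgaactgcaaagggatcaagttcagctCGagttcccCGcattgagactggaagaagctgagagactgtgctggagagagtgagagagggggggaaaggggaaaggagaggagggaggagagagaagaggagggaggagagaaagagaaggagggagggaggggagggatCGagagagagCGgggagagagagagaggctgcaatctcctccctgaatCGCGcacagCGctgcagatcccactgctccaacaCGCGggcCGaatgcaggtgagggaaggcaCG
Pcdh17, chr14:84443313-84443612, plus strand: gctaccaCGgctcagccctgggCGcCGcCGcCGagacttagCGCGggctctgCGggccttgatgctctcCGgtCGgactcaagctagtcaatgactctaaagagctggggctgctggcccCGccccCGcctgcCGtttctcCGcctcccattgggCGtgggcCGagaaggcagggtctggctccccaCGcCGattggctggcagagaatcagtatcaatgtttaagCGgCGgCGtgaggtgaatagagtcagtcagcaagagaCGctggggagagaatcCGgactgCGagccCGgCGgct
Pcdh18, chr3:49757267-49757566, minus strand: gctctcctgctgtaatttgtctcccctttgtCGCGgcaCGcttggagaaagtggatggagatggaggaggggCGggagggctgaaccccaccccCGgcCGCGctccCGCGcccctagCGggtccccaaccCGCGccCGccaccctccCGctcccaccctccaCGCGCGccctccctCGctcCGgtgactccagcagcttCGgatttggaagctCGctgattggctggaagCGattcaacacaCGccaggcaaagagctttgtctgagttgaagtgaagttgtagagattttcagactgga
Pcdh19, chrX:133688944-133689243, minus strand: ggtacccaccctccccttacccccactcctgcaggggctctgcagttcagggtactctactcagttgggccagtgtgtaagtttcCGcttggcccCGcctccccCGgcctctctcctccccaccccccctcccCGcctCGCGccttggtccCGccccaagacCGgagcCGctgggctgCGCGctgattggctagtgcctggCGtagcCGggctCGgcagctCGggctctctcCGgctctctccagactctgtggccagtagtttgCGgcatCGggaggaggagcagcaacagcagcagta
Pcdh8, chr14:79771263-79771562, minus strand: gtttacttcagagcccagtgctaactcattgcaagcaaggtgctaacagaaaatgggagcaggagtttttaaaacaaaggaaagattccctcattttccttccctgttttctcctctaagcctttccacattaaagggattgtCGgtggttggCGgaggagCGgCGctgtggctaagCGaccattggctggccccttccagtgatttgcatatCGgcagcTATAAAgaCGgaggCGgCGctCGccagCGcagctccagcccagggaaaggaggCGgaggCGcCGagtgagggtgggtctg
CG dinucleotides numbered 26 in the promoter of Pcdh17, 23 in Pcdh18, 18 in Pcdh19, 14 in Pcdh8 and 11 in Pcdh7. The median over 32851 RefSeq promoters of the same length was 7, in a wide spread. Of those promoters, 83.1% had fewer than Pcdh17, 78.5% than Pcdh18, 70.3% than Pcdh19, 63.7% than Pcdh8 and 58.6% than Pcdh7. Of the members not printed, Pcdh10 had 24, Pcdh9 had 18 and 19 in 2 promoters, and Pcdh20, below the median, had 4. The CTCF core motif CCANNAGNNGGC, searched on both strands, was in none of the promoters of the 8 members and in 2.43% of all promoters. TATAAA, searched on both strands, was found in Pcdh8 alone among the 8, starting 30 bases before the start of transcription, and in 13.6% of all promoters. A match describes the letters of a window and is not a site of binding.

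Total counts ran from 24696374 to 72048935 per library, and 3 reads corresponded to 0.0412 to 0.125 library-scaled CPM, the reads of a gene relative to its library's scaled total. Replicates of ES groups lay further apart than those of differentiating groups: the log2 ratio of replicate 1 to replicate 2 had an SD over genes of 0.539 to 0.654 in ES groups and 0.166 to 0.3005 in differentiating groups. The SD of 0.3005 belonged to day 2 auxin, and the next differentiating group was day 4 washout at 0.191. The summed level of 8 pluripotency markers was 3432 to 3969.7 CPM in 0 h ES cells. Because auxin acts on the protein, Ctcf mRNA does not check the labels. It read 211 to 287 CPM with auxin and 196 to 214 CPM after washout, against 172 to 230.2 CPM without auxin. In what follows, log2 changes are given ± standard error (SE), p-values are adjusted over every gene tested in the same comparison, with a gene called at an adjusted p below 0.05.

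Different members led at different stages. On the scale of CPM per kb of exon, Pcdh1 held 67.3% of the members' summed level in 0 h ES cells, ahead of Pcdh19 with 21.5%. Pcdh19 led in day 4 controls with 56.04%, and Pcdh18 led in day 6 controls with 42.6%, ahead of Pcdh19 with 26.8%. In day 6 auxin cells Pcdh19 led with 55.01% and Pcdh18 held 23.1%. The summed level on this scale was 4.77 in 0 h ES cells, 3.87 in day 2 controls, 7.41 in day 4 controls and 12.2 in day 6 controls. Pcdh11x and Pcdh20 were rare, with group means of at most 0.813 and 0.264 CPM.

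**Figure D1:**
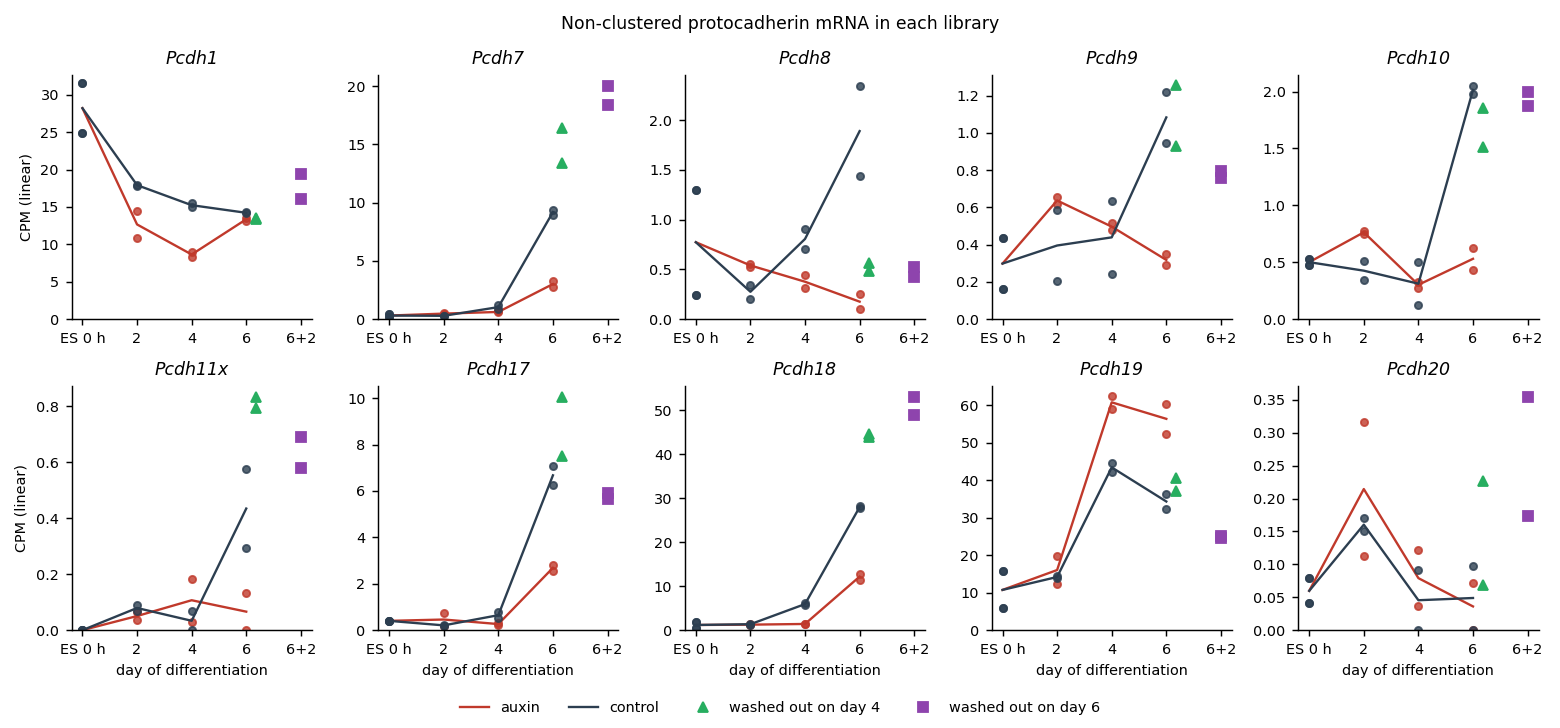
Level of each member in CPM (linear axis, scaled for each gene) against day of differentiation, with 1 point per library and lines through the means of the auxin and the control groups. Triangles are cells washed out on day 4 (drawn just right of day 6), squares are cells washed out on day 6 (6+2), and all courses start at the shared 0 h ES cells. Pcdh18 on day 6 lies at 11.5 and 12.8 CPM with auxin and 27.8 and 28.1 CPM in control, and Pcdh19 at 52.4 and 60.4 CPM with auxin and 36.3 and 32.4 CPM in control.

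During control differentiation Pcdh1 fell early and most other members rose late. Pcdh1, a delta-1 member known from airway epithelium, lies on chromosome 18 (38185914 to 38212053). It read 17.98 and 17.9 CPM in day 2 controls, against 24.9 and 31.5 CPM in 0 h ES cells (−0.66 ± 0.20, adjusted p = 0.0294). It was the only member called in this step, in which 18.2% of genes tested (10.3% higher and 7.91% lower) were called. The call was lost without replicate 2 of 0 h ES cells (adjusted p = 0.156), without day 2 control replicate 1 (0.1502) or 2 (0.169), and when the 4 libraries were fitted alone. In day 4 against day 2 controls 5 of 10 members were higher (Pcdh7, Pcdh8, Pcdh17, Pcdh18, Pcdh19) and 0 lower, against 52.1% of genes tested (27.2% higher and 24.8% lower). In day 6 against day 4 controls 7 of 10 were higher and 0 lower, against 26.7% of genes tested (13.6% higher and 13.1% lower). The median log2 change of the members in that last step was 1.79, and that of all genes tested was −0.00474. In the same step the neuron marker sum was 296 to 310.0 CPM in day 6, against 44.5 to 45.9 CPM in day 4 controls. Of its 10 markers, 9 were called higher. The neuron sum was also 223 to 293 CPM in 0 h ES cells and 160 to 161 CPM in day 2 controls. By itself it therefore does not mark neurons. The fibroblast sum was 751 to 782 CPM in day 6, against 364 to 372 CPM in day 4 controls, with 6 of 8 markers called higher. Their part in the members' rise was not tested.

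Pcdh18, a delta-2 member known to bind the adaptor Dab1, read 1.43 and 1.26 CPM in day 2, 6.12 and 5.73 CPM in day 4 and 27.8 and 28.1 CPM in day 6 controls. The stages did not overlap, and the log2 steps were 2.16 ± 0.12, adjusted p = 1.08e-10, and 2.25 ± 0.09, adjusted p = 2.92e-11. Pcdh17, a delta-2 member of synapses in the basal ganglia, read 0.1704 and 0.2404 CPM on day 2, 0.502 and 0.788 CPM on day 4 and 6.26 and 7.09 CPM on day 6. Its later step (3.37 ± 0.29, adjusted p = 2.23e-07) was the larger, and its earlier step (1.66 ± 0.47, adjusted p = 0.00684) was lost without replicate 1 of day 2 control (0.0522) or replicate 2 of day 4 control (0.0912). Pcdh7, a delta-1 member that binds the histone chaperone Set, read 0.273 and 0.301 CPM on day 2, 0.853 and 1.21 CPM on day 4 and 8.98 and 9.396 CPM on day 6, with log2 steps of 1.86 ± 0.27 and 3.15 ± 0.17. All 3 genes stood highest in day 6 controls among the control stages.

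Pcdh19, whose human counterpart is mutated in an epilepsy of girls, followed another course. It read 14.01 and 14.4 CPM on day 2, 42.2 and 44.7 CPM on day 4 and 36.3 and 32.4 CPM on day 6. The step to day 4 was called (1.63 ± 0.14, adjusted p = 4.86e-08) and that from day 4 to day 6 was not (−0.33 ± 0.14, adjusted p = 0.08403). Pcdh10, a delta-2 member known from axon growth, read 0.502 and 0.121 CPM on day 4 and 2.05 and 1.98 CPM on day 6 (2.72 ± 0.38, adjusted p = 4.30e-05). The log2 value of Pcdh10 was 4.04 without replicate 1 of day 4 control and 2.01 without replicate 2. Pcdh8, the paraxial protocadherin, known from early mesoderm and from synapses, read 0.205 and 0.346 CPM on day 2, 0.702 and 0.909 CPM on day 4 and 1.43 and 2.35 CPM on day 6. Its step to day 6 (1.24 ± 0.32, adjusted p = 0.008796) was lost without replicate 1 of day 4 control (0.09102) or replicate 2 of day 6 control (0.1704).

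Pcdh9 and Pcdh11x, delta-1 members of the nervous system, were low but higher on day 6. Pcdh9 read 0.636 and 0.242 CPM in day 4 and 0.945 and 1.22 CPM in day 6 controls (1.33 ± 0.41, adjusted p = 0.0238), a call lost without replicate 2 of day 4 (0.261) or of day 6 control (0.152). Its log2 value was 2.17 without replicate 1 of day 4 control. Pcdh11x had 4 and 0 reads in day 4 and 18 and 42 reads in day 6 controls (adjusted p = 0.00771), a call likewise lost without replicate 2 of day 4 (0.0905) or of day 6 control (0.0739). In the fit of all 24 libraries, Pcdh8 was not called in the step to day 4 (adjusted p = 0.101), nor Pcdh8 (0.354), Pcdh9 (0.236) and Pcdh11x (0.06796) in the step to day 6. Pcdh20 had 6 and 0 reads in day 6 controls and was called in none of the 16 comparisons.

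On day 6 of differentiation, 7 of 10 members were lower in auxin than in control cells and 1 was higher, against 29.2% of genes tested (14% higher and 15.2% lower). The median log2 change of the members was −1.47, and that of all genes tested was 0.01. In bulk RNA, fewer cells of a type and less RNA per cell cannot be told apart. Among delta-2 members, Pcdh8 had 6 and 14 reads (0.0991 and 0.252 CPM) in day 6 auxin libraries, against 88 and 171 reads (1.43 and 2.35 CPM) in day 6 control libraries. The mean of Pcdh8 was 10.8-fold lower with auxin (−3.45 ± 0.40, adjusted p = 5.00e-06), and its log2 value was −4.24 without replicate 2 of auxin. Pcdh10 read 0.628 and 0.433 CPM with auxin, against 2.05 and 1.98 CPM in control, and was 3.798-fold lower (−1.93 ± 0.35, adjusted p = 0.000452). Pcdh17 read 2.56 and 2.81 CPM with auxin, against 6.26 and 7.09 CPM in control, and was 2.48-fold lower (−1.33 ± 0.24, adjusted p = 0.000511). For each of these genes both auxin libraries lay below both control libraries.

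Pcdh18 read 11.5 and 12.8 CPM in day 6 auxin cells, against 27.8 and 28.1 CPM in day 6 control cells, and was 2.298-fold lower (−1.21 ± 0.08, adjusted p = 1.28e-08). Its day 6 auxin level lay between those of day 4 and day 6 controls, with no overlap on either side. Pcdh19 was the exception among delta-2 members, at 52.4 and 60.4 CPM with auxin, against 36.3 and 32.4 CPM in control, or 1.64-fold higher (0.70 ± 0.13, adjusted p = 0.000699).

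Of the 4 delta-1 members, 3 were lower on day 6. Pcdh7 read 2.73 and 3.298 CPM in auxin cells, against 8.98 and 9.396 CPM in control cells, and was 3.05-fold lower (−1.62 ± 0.15, adjusted p = 2.57e-07). Pcdh9 read 0.347 and 0.288 CPM with auxin, against 0.945 and 1.22 CPM in control, and was 3.41-fold lower (−1.78 ± 0.43, adjusted p = 0.00487). Neither gene's groups overlapped. Pcdh11x had 8 and 0 reads with auxin, against 18 and 42 reads in control (−2.66 ± 0.84, adjusted p = 0.0248), a call lost without replicate 2 of auxin (0.175) or of control (0.1899), with a log2 value of −1.72 without replicate 2 of auxin. Pcdh1 read 13.5 and 13.2 CPM with auxin, against 14.3 and 14.1 CPM in control, and was not called (−0.10 ± 0.11, adjusted p = 0.566). In a fit of all 24 libraries, whose estimate of spread includes the ES replicates, Pcdh7, Pcdh8, Pcdh10 and Pcdh18 were called on day 6, and Pcdh9 (adjusted p = 0.0747), Pcdh11x (0.154), Pcdh17 (0.07801) and Pcdh19 (0.419) were not.

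On day 4, 5 of 10 members were lower in auxin than in control cells (Pcdh1, Pcdh7, Pcdh8, Pcdh17, Pcdh18) and 1 was higher (Pcdh19), against 23.5% of genes tested (11.8% higher and 11.8% lower). Pcdh18 read 1.32 and 1.49 CPM with auxin, against 6.12 and 5.73 CPM in control, and was 4.22-fold lower (−2.08 ± 0.12, adjusted p = 1.78e-09). Its day 4 auxin libraries overlapped the 1.43 and 1.26 CPM of day 2 controls. Pcdh1 read 8.33 and 8.95 CPM with auxin, against 14.99 and 15.5 CPM in control, and was 1.76-fold lower (−0.82 ± 0.12, adjusted p = 5.90e-05). This was the lowest mean of Pcdh1 among the 12 groups. The calls of Pcdh18 and Pcdh1 held without any 1 of the 4 libraries and in the fit of all 24.

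The other 4 calls on day 4 were each lost without at least 3 of the 4 libraries and were not made in the fit of all 24. Leaving out a library leaves 1 in its group, so a lost call does not show that it rested on that library. The log2 values then ran from 0.44 to 0.52 for Pcdh19 and from −1.37 to −0.88 for Pcdh8. They ran from −0.98 to −0.48 for Pcdh7 and from −1.57 to −0.93 for Pcdh17. Pcdh19 read 62.4 and 59.1 CPM with auxin, against 42.2 and 44.7 CPM in control (0.48 ± 0.13, adjusted p = 0.0156). It was lost without auxin replicate 1 (0.111) or 2 (0.0523) and without control replicate 1 (0.114) or 2 (0.0641). Pcdh8 read 0.312 and 0.4401 CPM with auxin, against 0.702 and 0.909 CPM in control (−1.09 ± 0.38, adjusted p = 0.0454), and was lost without auxin replicate 1 (0.256) or 2 (0.0835) and without control replicate 1 (0.0723) or 2 (0.252). The groups of neither gene overlapped. Pcdh7 read 0.6604 and 0.577 CPM with auxin, against 0.853 and 1.21 CPM in control (−0.76 ± 0.23, adjusted p = 0.0251), and was lost without auxin replicate 1 (0.0687) or 2 (0.166) or control replicate 2 (0.306). Pcdh17 read 0.2201 and 0.304 CPM with auxin, against 0.502 and 0.788 CPM in control (−1.29 ± 0.45, adjusted p = 0.0465), and was lost without the same libraries (0.232, 0.114 and 0.337). With counts divided by 2, Pcdh7 and Pcdh17 were not called on day 4 (adjusted p = 0.0658 and 0.0758). Pcdh9 and Pcdh10, with log2 values of 0.19 ± 0.45 and −0.03 ± 0.47, were not called.

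On day 2 the only member called was Pcdh1, where 18.3% of genes tested (9.84% higher and 8.43% lower) were called. It read 10.8 and 14.5 CPM in auxin cells, against 17.98 and 17.9 CPM in control cells, and was 1.42-fold lower (−0.48 ± 0.11, adjusted p = 0.00659). The call held without any 1 of the 4 libraries, but its log2 value then ran from −0.71 to −0.32. It was not made in the fit of all 24 (adjusted p = 0.3599). The genes called on day 2 numbered 4126, but 7719 without auxin replicate 2 and 2214 without control replicate 1, the highest and lowest with 1 library left out. Pcdh7, Pcdh8 and Pcdh17, which were lower with auxin on days 4 and 6, had day 2 log2 values of 0.75 ± 0.32, 0.97 ± 0.41 and 1.20 ± 0.50, none past the threshold (adjusted p = 0.1195, 0.123 and 0.114).

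The difference between the auxin effects of 2 days was tested directly. From day 2 to day 4 the effect moved downward in 4 of 10 members and upward in 0, against 9.9% of genes tested (4.56% higher and 5.34% lower). The difference for Pcdh18 was −1.99 ± 0.19, adjusted p = 4.73e-06, and it held without any 1 of the 8 libraries. Those for Pcdh7 (−1.51 ± 0.39, adjusted p = 0.0219), Pcdh8 (−2.06 ± 0.56, adjusted p = 0.02705) and Pcdh17 (−2.50 ± 0.67, adjusted p = 0.0263) were lost without 5, 3 and 6 of the 8 libraries. For Pcdh7 these were day 2 auxin replicate 2 (0.0526), day 2 control replicates 1 (0.0848) and 2 (0.06404), day 4 auxin replicate 2 (0.0721) and day 4 control replicate 2 (0.101). For Pcdh8 these were day 2 control replicate 1 (0.125), day 4 auxin replicate 1 (0.109) and day 4 control replicate 2 (0.1102). For Pcdh17 these were day 2 auxin replicate 2 (0.247), day 2 control replicates 1 (0.1005) and 2 (0.0563), day 4 auxin replicates 1 (0.09902) and 2 (0.0558) and day 4 control replicate 2 (0.127). The log2 difference for Pcdh17 was −3.08 without replicate 1 of day 2 auxin and −1.16 without replicate 2. With counts divided by 2, Pcdh7 and Pcdh17 were not called (adjusted p = 0.0682 and 0.0505). The genes called numbered 2237, and from 1218 without day 2 control replicate 1 to 6326 without day 2 auxin replicate 2.

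From day 4 to day 6 the effect moved downward for Pcdh8 (−2.36 ± 0.57, adjusted p = 0.0263) and upward for Pcdh18 (0.86 ± 0.15, adjusted p = 0.00209) and Pcdh1 (0.72 ± 0.16, adjusted p = 0.0174), against 4.24% of genes tested (2.05% higher and 2.19% lower). For Pcdh18 and Pcdh1 upward means a smaller deficit with auxin on day 6 than on day 4. The median over the members was −1.004. Pcdh7 (−0.86 ± 0.28, adjusted p = 0.1102), Pcdh9 (−1.96 ± 0.62, adjusted p = 0.102), Pcdh10 (−1.89 ± 0.59, adjusted p = 0.0957) and Pcdh11x (−4.26 ± 1.45, adjusted p = 0.132) had negative values that were not called. Without a filter on low counts Pcdh9 (0.00774), Pcdh10 (0.00655) and Pcdh11x (0.00326) were called too, and with DESeq2 Pcdh10 (0.0254) and Pcdh11x (0.0243) were. The value of Pcdh18 held without any 1 of the 8 libraries. That of Pcdh8 was −3.15 without day 6 auxin replicate 2, and its call was lost without 5 of them: day 4 auxin replicate 2 (0.1605), day 4 control replicates 1 (0.0961) and 2 (0.0533), day 6 auxin replicate 1 (0.159) and day 6 control replicate 2 (0.122). That of Pcdh1 was lost without 7 of them: day 4 auxin replicates 1 (0.0943) and 2 (0.0509), day 4 control replicates 1 (0.0578) and 2 (0.0783), day 6 auxin replicate 1 (0.0783) and day 6 control replicates 1 (0.0654) and 2 (0.0677). None of these differences between days was called in the fit of all 24 libraries.

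**Figure D2:**
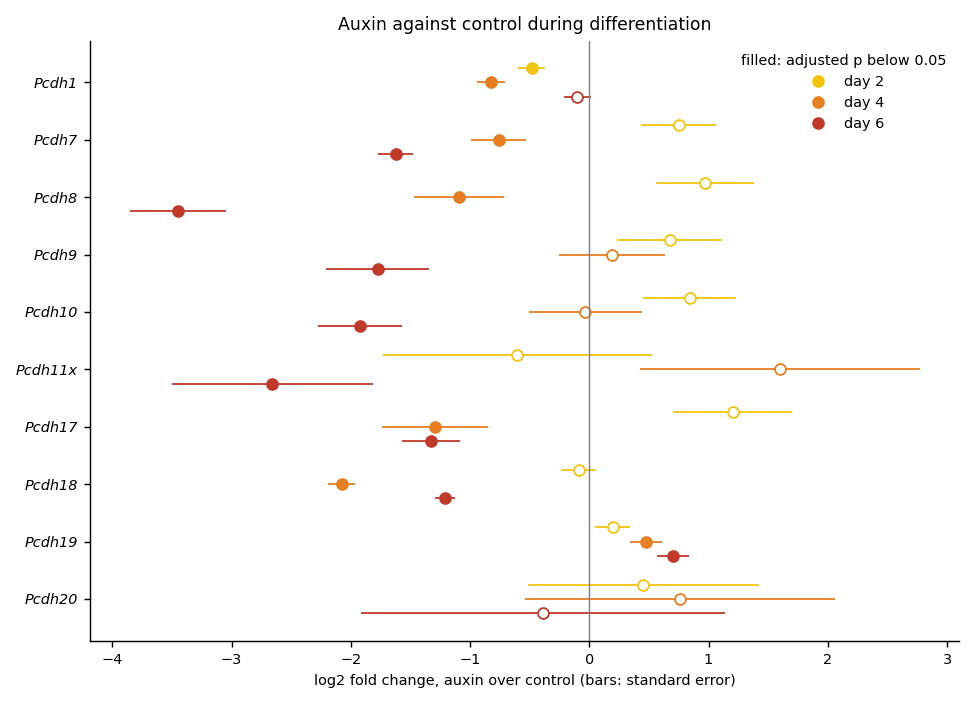
Log2 fold change of auxin over control for each member on days 2, 4 and 6, with bars for the SE and filled points where the adjusted p is below 0.05. On day 6 filled points run from −3.45 (Pcdh8) to −1.21 (Pcdh18), and Pcdh19 lies at 0.70. Pcdh1 is filled on days 2 and 4 only.

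Cell type markers moved in the same samples. The summed level of 10 neuron markers was 29.3 to 29.7 CPM in day 6 auxin libraries, against 296 to 310.0 CPM in day 6 control libraries. That of 10 neural progenitor markers was 152 to 159.9 CPM, against 236 to 239.6 CPM, and that of 8 pluripotency markers was 675 to 687 CPM, against 290.4 to 303 CPM. Of the 10 neuron markers tested on day 6, 10 were called lower and 0 higher with auxin. The neuron sum was 223 to 293 CPM in 0 h ES cells, so it alone does not mark neurons. Of the 10 neural progenitor markers, 9 were called lower and 1 higher with auxin, and of the 8 pluripotency markers, 0 were called lower and 7 higher with auxin. On day 4 the neural progenitor sum was 129 to 136 CPM with auxin, against 246 to 256 CPM in control, and the sum of 10 paraxial mesoderm markers was 44.8 to 45.8 CPM, against 99.9 to 103 CPM. Of the 9 paraxial mesoderm markers tested on day 4, 3 were called lower and 0 higher with auxin, with a median log2 change of −0.10. On day 6 the sum of 8 fibroblast markers was 677 to 681 CPM with auxin, against 751 to 782 CPM in control, and of its 8 genes 6 were called lower and 1 higher with auxin. No marker of these lists was at 0 in both libraries of a day 6 group. The part of these cell types in the protocadherin differences was not tested.

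After auxin was removed on day 4, 7 of 10 members were higher than in day 6 auxin cells and 1 was lower, against 34.6% of genes tested (17.3% higher and 17.3% lower). Pcdh18 read 43.9 and 44.6 CPM in day 4 washout cells, against 11.5 and 12.8 CPM in day 6 auxin cells, and was 3.63-fold higher (1.88 ± 0.08, adjusted p = 2.06e-10). Pcdh7 read 16.4 and 13.4 CPM after washout, against 2.73 and 3.298 CPM in day 6 auxin cells (2.33 ± 0.15, adjusted p = 6.88e-09). Pcdh17 read 10.1 and 7.497 CPM after washout, against 2.56 and 2.81 CPM in day 6 auxin cells (1.73 ± 0.25, adjusted p = 4.65e-05). All washout libraries lay above all day 6 auxin libraries for these genes. Relative to day 4 auxin cells, the state at removal, their means were 31.5-fold (Pcdh18), 24.1-fold (Pcdh7) and 33.5-fold (Pcdh17) higher. In that comparison 7 members were higher and 1 was lower, against 45.2% of genes tested (22.4% higher and 22.7% lower). In cells kept in auxin, means also rose from day 4 to day 6: 1.40 to 12.2 CPM (Pcdh18), 0.619 to 3.01 CPM (Pcdh7) and 0.262 to 2.69 CPM (Pcdh17). Washout cells were 2 days older than day 4 auxin cells, so washout and time cannot be told apart in the comparison with day 4 auxin. The call of Pcdh9 there was lost without day 4 auxin replicate 1 (0.121) or 2 (0.102) or washout replicate 2 (0.181), and that of Pcdh11x without day 4 auxin replicate 2 (0.06197). Pcdh9 and Pcdh19 were not called there in the fit of all 24 libraries (adjusted p = 0.177 and 0.318).

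The rarer members also stood higher after washout than in day 6 auxin cells. Pcdh11x had 44 and 46 reads in day 4 washout libraries, against 8 and 0 reads in day 6 auxin libraries (3.55 ± 0.81, adjusted p = 0.00293). Pcdh9 read 0.927 and 1.26 CPM, against 0.347 and 0.288 CPM (1.79 ± 0.44, adjusted p = 0.00467), and Pcdh10 read 1.85 and 1.52 CPM, against 0.628 and 0.433 CPM (1.68 ± 0.36, adjusted p = 0.00176). These 3 calls held without any 1 of the 4 libraries, but the size for Pcdh11x moved. Its log2 value was 2.61 without replicate 2 of day 6 auxin, and without replicate 1 only a library with 0 reads remained, so no size could be given. Pcdh8 read 0.568 and 0.483 CPM after washout, against 0.0991 and 0.252 CPM in day 6 auxin cells (1.61 ± 0.46, adjusted p = 0.0121), a call lost without replicate 1 of the washout (0.0652) or of day 6 auxin (0.142). Its log2 value was 2.39 without replicate 2 of day 6 auxin. Pcdh19 was the member that was lower, at 40.7 and 37.1 CPM after washout, against 52.4 and 60.4 CPM in day 6 auxin cells (−0.51 ± 0.13, adjusted p = 0.00752), a call lost without replicate 2 of the washout (0.0851) or of day 6 auxin (0.0771). Pcdh8, Pcdh9, Pcdh10 and Pcdh19 were not called in the fit of all 24 libraries.

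Set against day 6 controls, 2 of 10 members were higher and 1 was lower in day 4 washout cells, against 33.9% of genes tested (16.8% higher and 17.1% lower). Pcdh18 read 43.9 and 44.6 CPM, against 27.8 and 28.1 CPM in control, and was 1.58-fold higher (0.67 ± 0.08, adjusted p = 7.83e-06). Pcdh7 read 16.4 and 13.4 CPM, against 8.98 and 9.396 CPM in control, and was 1.62-fold higher (0.71 ± 0.13, adjusted p = 0.0005196). Pcdh8 had 30 and 28 reads after washout, against 88 and 171 reads in control, and was 3.598-fold lower (−1.84 ± 0.34, adjusted p = 0.000559). These calls held without any 1 of the 4 libraries, and none was made in the fit of all 24 (adjusted p = 0.2802 for Pcdh18, 0.3405 for Pcdh7 and 0.0887 for Pcdh8). Pcdh9, Pcdh10, Pcdh17 and Pcdh19 had log2 differences of 0.02 ± 0.38, −0.25 ± 0.31, 0.40 ± 0.23 and 0.19 ± 0.14 and were not called. The neuron marker sum was 48.4 to 50.8 CPM in day 4 washout cells, against 296 to 310.0 CPM in day 6 control, and the fibroblast sum was 839 to 879 CPM, against 751 to 782 CPM. Of the 10 neuron markers, 10 were called lower and 0 higher. Of the 8 fibroblast markers, 3 were called higher and 2 lower, with a median log2 change of 0.13. Of the 10 neural progenitor markers, 1 was called higher and 8 lower, with a median log2 change of −2.86. The neural progenitor sum was 217 to 224 CPM, against 236 to 239.6 CPM in day 6 control. The part of these lists in the members' levels was not tested.

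**Figure D3:**
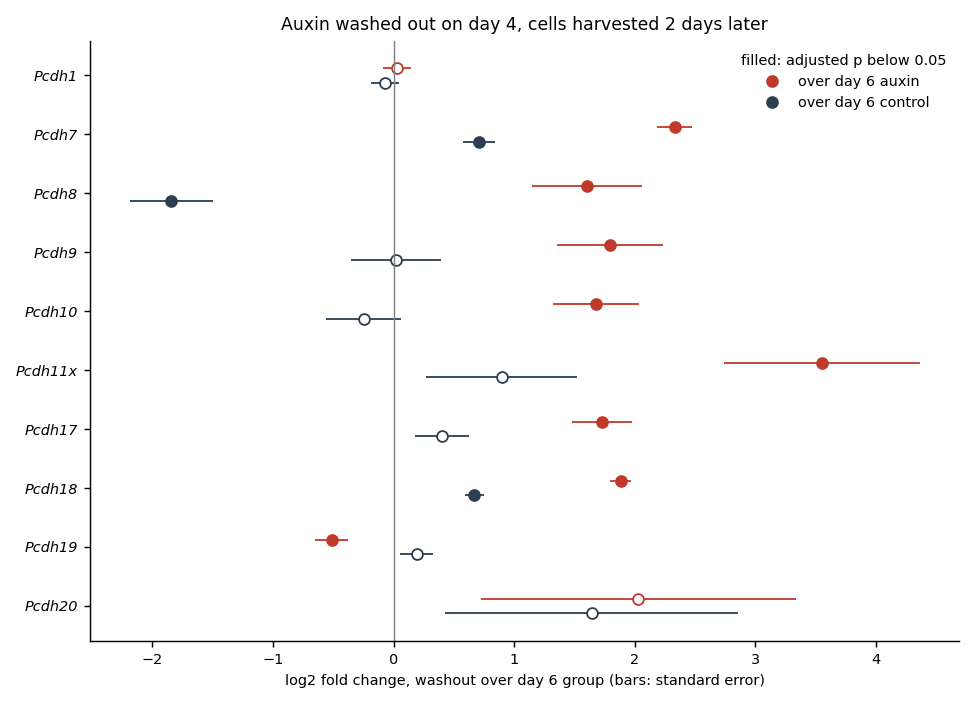
Log2 fold change of each member in cells washed out on day 4 and harvested 2 days later, over day 6 auxin cells and over day 6 control cells, with bars for the SE and filled points where the adjusted p is below 0.05. Over day 6 auxin, 7 members have filled points above 0 on the log2 scale, and Pcdh19 lies at −0.51. Over day 6 control, the filled points are Pcdh7 at 0.71, Pcdh18 at 0.67 and Pcdh8 at −1.84.

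After auxin was removed on day 6, 8 of 10 members were higher than in day 6 auxin cells and 1 was lower, against 40.3% of genes tested (20.4% higher and 19.9% lower). The washout cells were 2 days older and no control of that age was analysed here, so washout and time cannot be told apart. Pcdh18 read 48.8 and 52.97 CPM in day 6 washout cells, against 11.5 and 12.8 CPM in day 6 auxin cells (2.08 ± 0.08, adjusted p = 3.39e-11). Pcdh7 read 18.4 and 19.99 CPM after washout, against 2.73 and 3.298 CPM in day 6 auxin cells (2.69 ± 0.15, adjusted p = 8.16e-10). Pcdh19 read 24.6 and 25.1 CPM after washout, against 52.4 and 60.4 CPM in day 6 auxin cells (−1.17 ± 0.14, adjusted p = 4.86e-06). Pcdh18 and Pcdh7 had their highest levels of the 12 groups here, with no overlap with the next group. The fibroblast marker sum was 1389 to 1432 CPM in day 6 washout cells, against 677 to 681 CPM in day 6 auxin cells. Of its 8 markers, 7 were called higher and 1 lower. This sum was also 436 to 655 CPM in ES cells after 96 h of auxin. The neuron sum was 55.3 to 56.6 CPM, against 29.3 to 29.7 CPM, with 7 of 10 markers higher and 0 lower. The sum of 8 endoderm markers was 823 to 870 CPM, against 650 to 661 CPM, with 6 higher and 1 lower. The part of these lists was not tested. Calls of Pcdh10 and Pcdh17 held without any 1 of the 4 libraries. That of Pcdh1 was lost without replicate 1 of the washout (0.102), that of Pcdh11x without replicate 2 of day 6 auxin (0.0514) and that of Pcdh8 without replicate 1 of day 6 auxin (0.1996) or of the washout (0.0992). That of Pcdh9 was lost without day 6 auxin replicate 1 (0.0845) or 2 (0.141) and without washout replicate 1 (0.09605) or 2 (0.0789). In the fit of all 24 libraries Pcdh7, Pcdh10 and Pcdh18 were called, and the other 6 were not (adjusted p = 0.227 for Pcdh1, 0.242 for Pcdh8, 0.176 for Pcdh9, 0.0537 for Pcdh11x, 0.1102 for Pcdh17 and 0.0727 for Pcdh19).

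In ES cells no member was called after 24, 48 or 96 h of auxin, where 0% of the 20361 genes tested were called by edgeR at each time. At an unadjusted p below 0.05 there were 0, 1 and 1 members, and 548, 1039 and 1767 genes, at 24, 48 and 96 h. DESeq2 called 76, 154 and 365 genes and 0 members. With the replicate block, 23, 40 and 621 genes (0.113%, 0.196% and 3.05%) and 0 members were called. Pcdh19 diverged between replicates. In replicate 1 it read 15.7, 13.7, 15.9 and 6.95 CPM at 0, 24, 48 and 96 h, and in replicate 2 it read 5.805, 8.56, 14.9 and 21.1 CPM. The 96 h library was the lowest of replicate 1 and the highest of replicate 2.

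Pcdh1 read 17.4 and 15.5 CPM after 96 h, against 24.9 and 31.5 CPM at 0 h, and was not called (−0.79 ± 0.30, unadjusted p = 0.0297, adjusted p = 0.497, edgeR). Pcdh1 was called in the fit of all 24 libraries (adjusted p = 0.0215, edgeR), where 1955 genes were called at 96 h, against 0 in the ES fit. The common dispersion was 0.0439 in the fit of all 24 and 0.134 in the ES fit. The larger fit can thus understate the spread between ES replicates. Pcdh17 read 1.205 and 1.41 CPM after 48 h, against 0.395 and 0.406 CPM at 0 h (1.69 ± 0.65, unadjusted p = 0.0297, adjusted p = 0.882, edgeR), and 0.317 and 1.04 CPM after 96 h. The auxin effect of day 4 did not differ past the threshold from that of 96 h in ES cells for any of the 10 members, where 1.23% of genes tested (0.462% higher and 0.772% lower) were called. The difference was −0.04 ± 0.28, adjusted p = 0.993 for Pcdh1, and −1.46 ± 0.55, adjusted p = 0.266 for Pcdh18. Without replicate 1 of 0 h ES cells, Pcdh18 was called (−2.72, adjusted p = 0.00144). Pcdh11x and Pcdh20 were too rare in ES cells to be tested there.

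**Figure D4:**
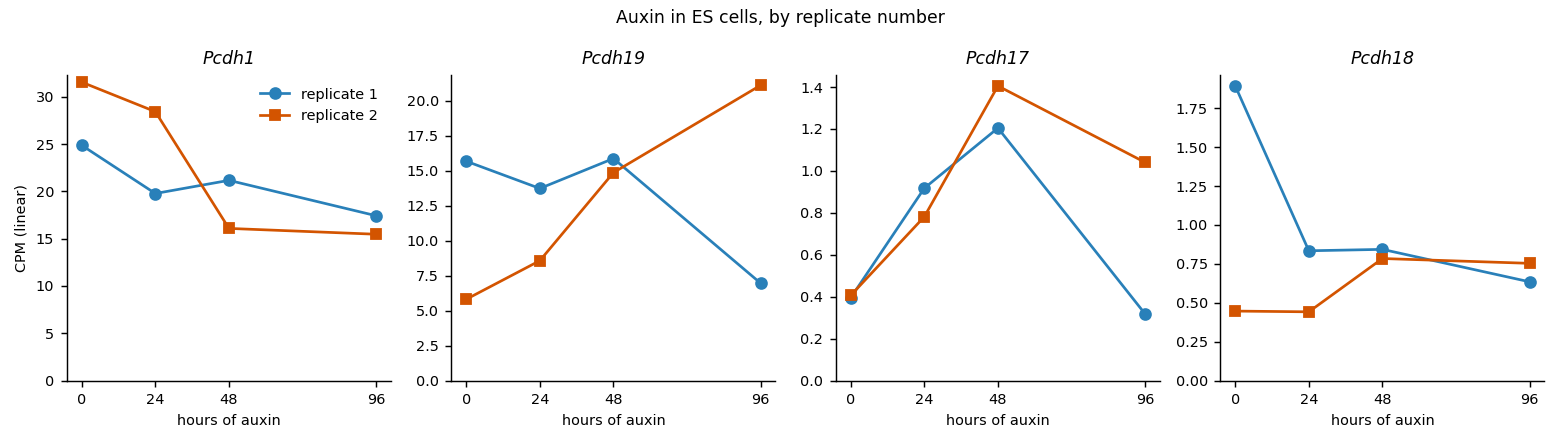
Level in CPM (linear axis) of Pcdh1, Pcdh19, Pcdh17 and Pcdh18 against hours of auxin in ES cells, with 1 line per replicate. At 96 h Pcdh19 lies at 6.95 CPM in replicate 1 and 21.1 CPM in replicate 2, and Pcdh1 at 17.4 and 15.5 CPM.

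Binding partners were described as lists. Of 9 WAVE complex genes, 0 were higher and 3 lower in day 6 auxin than in day 6 control cells, with a median log2 change of −0.09, where 29.2% of genes tested (14% higher and 15.2% lower) were called. The share called, taken without direction, was near that of all genes. All 3 calls were lower, where 15.2% of genes tested were lower, and this difference was not tested. The 3 were Wasf1 (−0.61 ± 0.07) and Wasf3 (−0.66 ± 0.10), which activate the actin nucleator Arp2/3, and the scaffold subunit Nckap1 (−0.23 ± 0.07). Of 7 binding partners, 0 were higher and 5 lower (median −0.27). Cdh2, the N-cadherin that pairs with Pcdh19, averaged 66.96 CPM in day 6 auxin and 155 CPM in day 6 control cells (−1.22 ± 0.09). Cdh11, a mesenchymal cadherin, averaged 15.4 CPM with auxin and 35.7 CPM in control (−1.22 ± 0.11). Dab1, the partner of Pcdh18, was lower (−1.26 ± 0.14), as was Set, the partner of Pcdh7 (−0.27 ± 0.06). In day 4 washout cells Cdh11 averaged 88.7 CPM, against 35.7 CPM in day 6 control (1.32 ± 0.10), and Cdh2 averaged 82.8 CPM, against 155 CPM (−0.90 ± 0.09). The means of these partners lay on opposite sides of the control.

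Other cadherins were set against the same shares of genes called on day 6 (14% higher and 15.2% lower). Of 17 classical and type II cadherins tested, 3 were higher and 10 lower in day 6 auxin cells (median −1.22), with Cdh3, the P-cadherin, higher (1.14 ± 0.08) and Cdh10 lower (−1.60 ± 0.14). Of 11 large and other cadherins tested, 0 were higher and 5 lower (median −0.78). Among these were Fat3 (−2.58 ± 0.17) and the planar polarity genes Celsr2 (−1.05 ± 0.15) and Celsr3 (−2.18 ± 0.20). The full list of 12 included Pcdh12 and Pcdh15, protocadherins that were not among the 10 members. Cdh2 and Cdh11 were counted both with the classical and type II cadherins and with the binding partners. Of the clustered protocadherins, 17 of 20 beta genes and 16 of 21 gamma genes tested were lower on day 6 and 0 higher (medians −2.78 and −1.54). On day 2, 9.84% of genes tested were higher and 8.43% lower. There 8 of 20 beta and 17 of 21 gamma genes were lower (medians −2.96 and −1.93). Of the 10 non-clustered members, 0 were called higher and 1 lower, with a median of 0.56. Reads that near-identical clustered genes share may be split between copies, so single clustered genes are uncertain. The difference between the lists was not tested.

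Across the 12 group means, on the scale of log2(CPM + 0.5), Pcdh7 ran with Pcdh18 (Pearson's r = 0.97) and with Pcdh17 (0.95), and Pcdh17 with Pcdh18 (0.90). Pcdh1 ran against Pcdh19 (−0.78), and Pcdh8 had an r of 0.22 with Pcdh18. These values describe 12 points that share stages and treatments. Among 17351 genes, the most like Pcdh18 were Unc5c, a netrin receptor (0.994), Cdh11 (0.991) and Pla2g4a (0.989). The most like Pcdh7 were Sst, the somatostatin gene (0.995), Cd248 (0.992) and the matrix gene Lum, itself on the fibroblast list (0.990). For Pcdh17 they were March11 (0.982), Kcnj2 (0.972) and B230334C09Rik (0.962), and for Pcdh19 Efr3b (0.986) and Sipa1l1 (0.981). For Pcdh8 they were Scrt2, a neural zinc-finger gene (0.929), Necab1 (0.901) and Crb2 (0.893), and for Pcdh1 Srebf2 (0.957), Gli2 (0.957) and Tmem51os1 (0.950). For Pcdh10 they were Kcnv1 (0.917), Ano1 (0.902) and Lgals1 (0.894), and for Pcdh9 C630043F03Rik (0.925), Rassf9 (0.918) and Spock3 (0.910). Only 4 of the 24 genes chosen this way were named again with Spearman's correlation.

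Neighbouring genes gave mixed values. Slc7a11, the cystine transporter gene 135 kb from Pcdh18, averaged 3.93 CPM in day 4 auxin and 7.99 CPM in day 4 control cells (−1.03 ± 0.16). On day 6 it averaged 6.61 CPM with auxin and 2.74 CPM in control (1.25 ± 0.16), so it was lower with auxin on day 4 and higher on day 6, while Pcdh18 was lower on both. Pabpc4l, between Pcdh10 and Pcdh18, was lower on day 4 (−0.73 ± 0.21) and day 6 (−0.88 ± 0.19). Arap3, 187 kb from Pcdh1, was lower on day 4 (−0.47 ± 0.12) and higher on day 6 (0.37 ± 0.12). Stim2, a neighbour of Pcdh7, and Diaph3, a neighbour of Pcdh17, had day 6 values of 0.18 ± 0.08 and 0.02 ± 0.07 and were not called. Diaph2, a neighbour of Pcdh19, was higher on day 6 (0.40 ± 0.15, adjusted p = 0.0482).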

How the data were processed

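Read counts per gene for 24 libraries were deposited by the authors as 1 table. Per the submitters' processing notes the tools were STAR, HTSeq and edgeR and the build mm10, while versions, strand setting and annotation release were not given in these sources. The row without a gene name (1) was left out, and 0 columns belonged to no sample. From 59.6% to 78.0% of counts between 1 and 20 were even. Some reads may thus have been counted by both mates, and dividing counts by 2 was tried. The washout libraries had the lowest shares (59.6% to 60.5%), and day 6 auxin replicate 2 was next (65.9%). Comparisons of washout with other groups therefore set apart libraries that also differ in this share.

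Groups came from sample titles. Counts were tested with the quasi-likelihood test of edgeR 4.0.16 in R 4.3.3, with TMM scaling, a filter on low counts (minimum count 10, minimum total 15) and Benjamini-Hochberg adjustment over all genes. The 8 ES libraries (20361 genes) and the 16 differentiation libraries (22587 genes) were fitted apart, and all 24 (23831 genes) for contrasts across both. This passed 8 members in ES cells and 10 elsewhere. DESeq2 1.42.0 was an alternative. The test was run on simulated counts first. CPM used TMM-scaled totals. Replicate numbers paired the ES libraries: deviations of same-numbered samples correlated in 6 of 6 pairs (0.183 to 0.736). They did not in differentiation (−0.201 to 0.159 over 28 pairs, 2 of them over 0.1).

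All 10 members are named, other genes by list, by likeness (the 3 highest correlations for members with a group mean of at least 1 CPM) or as nearest coding neighbour. Of the genes chosen by likeness, 1 is not reported here. In each list up to 4 genes called in the most comparisons were named. Members and lists were chosen with earlier results of these data known. Alternatives were other scaling, no filter, DESeq2, halved counts, the replicate block, other library sets and each library left out in turn.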

Additional observations from a re-analysis of the deposited data

Results flagged for a closer look

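The auxin effect differed between days by a direct test of the difference (an interaction in edgeR) in 7 cases. From day 2 to day 4 it changed by −1.51 for Pcdh7, −2.06 for Pcdh8, −2.50 for Pcdh17 and −1.99 for Pcdh18 on the log2 scale. From day 4 to day 6 it changed by 0.72 for Pcdh1, −2.36 for Pcdh8 and 0.86 for Pcdh18. The pair of values for Pcdh18 held without any 1 of the 8 libraries of each test, and the other 5 did not.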

How the results depend on the processing

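Of 63 calls of a member in a comparison, 40 held with each library left out in turn, 58 held under every other setting apart from the fit of all 24 libraries, and 25 held throughout. None of the members' values past the threshold reversed. With all 24 libraries in 1 fit the number of members called was 1 for 96 h in ES cells (0 with the ES libraries alone), 4 for day 6 against day 4 control (7), 0 for auxin on day 2 (1), 2 on day 4 (6) and 4 on day 6 (8). It was 0 for both differences between days (4 and 3), 4 for day 4 washout against day 6 auxin (8), 0 against day 6 control (3) and 3 for day 6 washout (9). The common dispersion was 0.0439 in that fit, 0.134 in the ES fit and 0.0051 in the differentiation fit. Without a filter the number was 0 for day 2 control against ES cells, 2 for auxin on day 2 and 6 for the change from day 4 to day 6. With DESeq2 it was 2 and 5 for the last pair, with only the groups compared it was 0 for day 2 control against ES cells, and with counts divided by 2 it was 2 for the change from day 2 to day 4.

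With 1 library left out the number of members called ran from 0 to 2 for day 2 control against ES cells, from 4 to 6 for day 4 against day 2 control, from 4 to 7 for day 6 against day 4 control, from 1 to 3 for auxin on day 2, from 2 to 4 on day 4 and from 7 to 8 on day 6. It ran from 1 to 5 for the change from day 2 to day 4, from 1 to 3 for that from day 4 to day 6 and from 0 to 1 for day 4 against 96 h in ES cells. It was 7 for day 4 washout against day 6 auxin and 3 against day 6 control, and ran from 6 to 8 for day 4 washout against day 4 auxin and for day 6 washout. The cause of these changes was not tested. The replicate block changed the genes called in ES cells from 0 to 23, 40 and 621 at 24, 48 and 96 h, and called 0 members there. It changed no call of a member in any comparison. With 1 library left out the genes called ran from 1932 to 6051 for day 2 control against ES cells (4328 with all), from 3861 to 4117 for day 6 against day 4 control (6024), from 3320 to 3739 for auxin on day 4 (5318), from 506 to 559 for the change from day 4 to day 6 (958), from 49 to 691 for day 4 against 96 h in ES cells (294) and from 5071 to 5703 for day 4 washout against day 6 auxin (7823). Pcdh20 had from 0 to 22 reads per library, where 3 reads was taken as the limit of detection. It was tested in differentiation and not called, and counts this low leave little power to detect differences. Pseudocount 2 gave 19 of the 24 most alike genes again.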
